A study of Mus musculus with 6 samples.

Results

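Ctnnd2, Zbtb16, Il16, Slco2b1, Fam214a, Cd79b and Epor are 7 mouse genes of unrelated function that gave some of the largest falls in signal when M2 macrophages met whole glucan particles (WGP). They were chosen by their difference in processed signal between WGP and medium on replicates 1 and 2, so their differences are given as a description and were not tested. They are 7 of 20283 genes with a named probe on the array and 7 of the 10948 genes whose probe passed the filter on dim probes. All 7 passed it on the medium arrays, and 3 of them there alone. Their 9 probes were found by the RefSeq accession that the array files give for each probe.

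The cells were macrophages grown from the bone marrow of C57BL/6 mice aged 6 to 8 weeks and labelled as polarized M2 in both groups. The WGP group spent 6 h in complete DMEM with WGP, and the medium group spent 6 h in complete DMEM alone. WGP are hollow shells of yeast cell wall made mostly of beta-glucan, which macrophages bind through the receptor Dectin-1 and engulf. The labels name neither the agent that polarized the cells nor the dose of WGP, and do not say whether replicates came from separate mice or cultures, so the spread between replicates may be technical. Agilent 1-colour arrays were hybridised with Cy3 copies of the total RNA. Each group had 3 deposited files, but the files of replicate 3 held no array of their own: their median spot signals and backgrounds equalled those of replicate 1 at all 44397 spots. Each group therefore had n = 2 independent arrays.

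These genes come from 7 separate systems. Ctnnd2 belongs to the adhesion machinery of catenins and cadherins, Zbtb16 is a transcriptional repressor, Il16 encodes a secreted chemoattractant, and Slco2b1 is a membrane transporter. Fam214a is a nuclear protein known chiefly from its fly relative, while Cd79b and Epor are signalling receptors best known from B cells and red cell precursors. What the choice gave them in common is the direction and size of their difference.

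A level is the log2 ratio of a spot's processed signal (its brightness after background subtraction) to the 75th percentile of such signals on its array, so 0 stands for that percentile. That percentile was 59.2 and 56.1 scanner units on the WGP arrays and 85.8 and 68.6 units on the medium arrays. Over the 7 genes the difference, WGP minus medium, lay between -3.95 and -3.02 on the log2 scale, with a median of -3.53. This is a measured 8.10-fold to 15.5-fold lower signal with WGP. In all 7 genes both WGP arrays lay below both medium arrays, as they did in 34.4% of all genes tested. By limma at an adjusted p under 0.05, 40.6% of all genes tested changed, 23.2% as higher and 17.4% as lower with WGP. Since the 7 genes were picked for their fall, nothing is read from their count. Over all genes tested the median difference was 0.03 with an SD of 0.87. In total RNA of a whole culture, fewer cells that express a gene and less RNA per cell cannot be told apart.

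**Figure D1:**
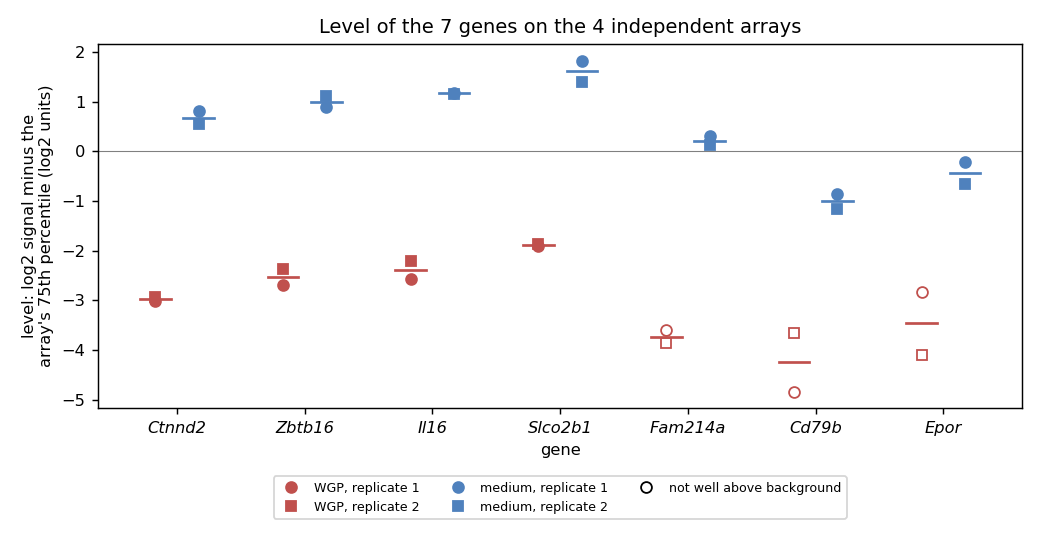
Level of each of the 7 genes on the 4 independent arrays (vertical axis: log2 level relative to the 75th percentile of the array; horizontal axis: gene). Red marks are WGP and blue marks medium, circles are replicate 1 and squares replicate 2, bars are group means, and open marks were not well above background. In every gene both WGP arrays lie below both medium arrays, and the WGP marks of Fam214a, Cd79b and Epor are open.

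The genes fell into 2 kinds by what the scanner could still see. Ctnnd2, Zbtb16, Il16 and Slco2b1 were well above background on all 4 arrays, so their fold has a measured value on both sides. Ctnnd2 was near the edge: its level on WGP replicate 1 was -3.01, beside -3.06 for the dimmest probe well above background there. Epor was brighter on that array, at -2.82, and was not well above background, so the split is not one of brightness alone. Fam214a, Cd79b and Epor were well above background on both medium arrays and on neither WGP array. Their fold is therefore given as a lower bound. For that bound, each WGP array took the dimmest signal there among probes well above background, or the gene's own signal where higher. Group means of log2 levels were then compared. The bound holds for the processed signal at this scaling, and "at least" has that sense throughout. With the normexp background correction and 75th-percentile scaling the differences of Fam214a, Epor and Cd79b were -1.03, -0.48 and -0.32. These are smaller falls than the bounds.

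The unprocessed spots show the same split. With WGP the median pixel of the 7 spots lay between 30 and 44 scanner units, over a local background between 22.5 and 30 units. In medium the spots lay between 53 and 304.5 units, over a background between 21 and 32.5 units. The spots of both groups thus stood on a similar local background, and the WGP spots stood little above it.

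**Figure D2:**
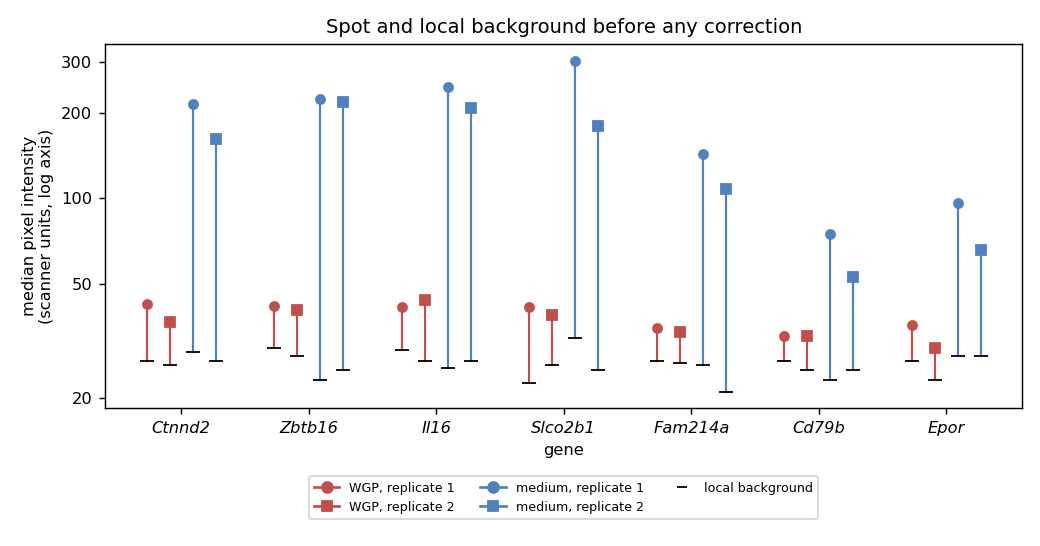
Median pixel intensity of the spot (circle for replicate 1, square for replicate 2) and of its local background (short black bar) for the 7 genes, in scanner units on a log axis, before any correction. WGP spots (red) lie between 30 and 44 units and medium spots (blue) between 53 and 304.5 units, over backgrounds between 21 and 32.5 units.

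Ctnnd2 encodes delta-catenin, an armadillo-repeat protein of the p120-catenin family that binds the inner part of classical cadherins and is best known from neurons. Its level was -3.01 and -2.94 on the WGP arrays and 0.81 and 0.56 on the medium arrays. Both WGP arrays sat close together, and the gap to medium was many times the distance between arrays of a group. The mean was -2.97 ± 0.048 with WGP and 0.68 ± 0.18 in medium (SD, n = 2 each), a difference of -3.66 ± 0.13 (SE), or 12.6-fold lower with WGP. A second probe of the gene had processed signals of 7.12 and 4.09 units with WGP and 147 and 96.5 units in medium. It was not well above background with WGP and gave at least 15.7-fold lower. That exceeds the 12.6-fold of the first probe, so it is a bound for the second probe's signal and not for the gene.

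The other catenin and cadherin genes showed no common direction. Of 19 genes on that list, 9 were tested, 2 rose, 1 fell and 6 did not pass (limma, adjusted p under 0.05), or 2 rose and 3 fell with the slide as a block, to be read against the 23.2% of all genes that rose and the 17.4% that fell. The split was 1 and 1 without WGP replicate 1, and 1 and 2 without WGP replicate 2. Ctnnb1, beta-catenin, the link between cadherins and the actin-binding alpha-catenins and the effector of Wnt signalling, had levels of 1.25 and 1.27 with WGP and -0.49 and -0.54 in medium. It rose by 1.77 ± 0.093 on the log2 scale (limma adjusted p = 0.0018). Pkp4, plakophilin 4, a relative of delta-catenin, rose by 0.93 (adjusted p = 0.023, but 0.084 without WGP replicate 1 and 0.070 without WGP replicate 2).

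Arvcf, another p120 relative, had a difference of -1.30 (limma adjusted p = 0.0092), was not well above background with WGP and was at least 1.95-fold lower there. With the normexp background correction and 75th-percentile scaling its difference was 0.07 (adjusted p = 0.55). That setting differs in the background model, the offset and the input signal at once, and which of them turned the direction was not tested. Ctnnd1, p120-catenin itself, had levels of 2.50 and 2.39 with WGP and 2.66 and 2.55 in medium, and its difference of -0.16 did not pass (limma adjusted p = 0.28). Both WGP arrays were the lower, but by a gap smaller than that between replicates.

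The promoter of Ctnnd2 is shown because no motif searched was found in it. The 250 bases before its annotated start (RefSeq, GRCm38.p6, chr15:30172284-30172533, plus strand) are 62.8% G and C with 21 CG pairs, against medians of 52.4% and 6 over 32817 mouse promoters. None of the 15 motifs occurs in it, so it has no capitals.

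Ctnnd2 promoter: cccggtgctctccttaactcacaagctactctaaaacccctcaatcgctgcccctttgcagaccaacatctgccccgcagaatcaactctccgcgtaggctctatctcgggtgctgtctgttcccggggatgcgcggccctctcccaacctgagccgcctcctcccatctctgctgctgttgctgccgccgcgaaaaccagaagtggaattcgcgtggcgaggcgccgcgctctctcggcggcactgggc

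Zbtb16 encodes PLZF, a BTB zinc finger protein that represses transcription with the NCoR and histone deacetylase complexes, is needed for natural killer T cells and spermatogonial stem cells in mice, and is induced by glucocorticoids in human cells. Its level was -2.68 and -2.38 on the WGP arrays and 0.89 and 1.11 on the medium arrays. Replicate 2 was the higher array in both groups, and the groups lay far apart. The mean was -2.53 ± 0.21 with WGP and 1.00 ± 0.16 in medium (SD, n = 2 each), a difference of -3.53 ± 0.16 (SE), or 11.5-fold lower with WGP.

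Most relatives of Zbtb16 did not pass the test. Of 38 genes on the list of BTB zinc finger factors, 23 were tested, 4 rose, 2 fell and 17 did not pass, with a median difference of 0.16 beside 0.03 for all genes. The split was 7 rose and 1 fell with median scaling, 3 and 1 with the slide as a block, and 1 and 1 without WGP replicate 1 or WGP replicate 2. Without medium replicate 1 it was 3 and 1, and without medium replicate 2 it was 2 and 1. Zbtb18, a repressor best known from the developing brain, had levels of -1.83 and -1.91 with WGP and -4.12 and -4.58 in medium. It was not well above background in medium and was at least 2.68-fold higher with WGP (limma adjusted p = 0.0031). Zbtb2 rose by 0.84 (adjusted p = 0.025, but 0.092 without WGP replicate 1 and 0.074 without WGP replicate 2).

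Zbtb20, a repressor of the same family that acts in liver, brain and macrophages, fell by 0.93 on the log2 scale (limma adjusted p = 0.0079). Zbtb14 fell by 0.37 (adjusted p = 0.045), a call that was lost on leaving out any 1 of the 4 arrays (adjusted p between 0.11 and 0.22). It was lost as well with the slide as a block (adjusted p = 0.074) and with median scaling (adjusted p = 0.31).

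The corepressors that PLZF recruits were measured separately. Of 9 listed, 8 were tested, 3 rose and the other 5 did not pass, with a median difference of 0.19. Without WGP replicate 1 or WGP replicate 2 the number that rose was 1. Hdac4, a class II histone deacetylase, rose by 1.14 (limma adjusted p = 0.0064). Sin3b, a scaffold of deacetylase complexes, rose by 0.92 (adjusted p = 0.012, but 0.052 without WGP replicate 1 or without WGP replicate 2).

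Genes of the glucocorticoid response moved both ways. All 15 on the list were tested, 5 rose, 5 fell and 5 did not pass, with a median difference of 0.31. The even split did not hold in every setting. It was 8 rose and 3 fell with median scaling and 7 and 3 with the slide as a block. It was 3 and 2 without WGP replicate 1, 4 and 2 without WGP replicate 2, and 5 and 2 without medium replicate 1. Nr3c1, the glucocorticoid receptor, had levels of 4.28 and 4.23 with WGP and 4.44 and 4.34 in medium, and its difference of -0.14 did not pass (limma adjusted p = 0.33) and was 0.03 with median scaling. Fkbp5, a co-chaperone of that receptor and one of its standard targets, differed by 0.14 and did not pass (adjusted p = 0.51), with a value of -0.04 without medium replicate 1.

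Tsc22d3, the glucocorticoid-induced leucine zipper, fell by 0.64 on the log2 scale (limma adjusted p = 0.027), a call lost on leaving out medium replicate 1 (adjusted p = 0.056), WGP replicate 1 (0.10) or WGP replicate 2 (0.095). Tgm2, a transglutaminase and also a marker of alternative activation, rose by 3.71 ± 0.12 (adjusted p = 0.0013). Sgk1, a serum- and glucocorticoid-regulated kinase, rose by 3.15 ± 0.12 (adjusted p = 0.0013).

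Cd163, the scavenger receptor for haemoglobin and haptoglobin, was not well above background with WGP and was at least 2.44-fold lower there (limma adjusted p = 0.0016). That call was lost under normexp scaled to the 75th percentile (adjusted p = 0.20). Pik3r1, the regulatory subunit of PI3-kinase, fell by 0.80 (adjusted p = 0.0078).

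Il16 encodes a precursor protein whose tail is cut off and secreted as interleukin-16, a chemoattractant for cells that carry CD4. Its level was -2.57 and -2.21 on the WGP arrays and 1.18 and 1.16 on the medium arrays. The medium arrays were nearly equal, and both WGP arrays lay far below them. The mean was -2.39 ± 0.26 with WGP and 1.17 ± 0.019 in medium (SD, n = 2 each), a difference of -3.56 ± 0.15 (SE), or 11.8-fold lower with WGP.

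The receptors of interleukin-16 were measured as well. Cd9, a tetraspanin reported as a second receptor, had levels of 4.23 and 4.14 with WGP and 2.52 and 2.52 in medium. It rose by 1.67 ± 0.095 (limma adjusted p = 0.0019).

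Cd4, the main receptor, had levels of 4.03 and 4.13 with WGP and 4.25 and 4.29 in medium. Both WGP arrays were the lower, and the difference of -0.19 did not pass (limma adjusted p = 0.20). It did pass as the mean of the gene's probes (-0.46, adjusted p = 0.023) and under normexp scaled to the 75th percentile (-0.36, adjusted p = 0.017).

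Il16 has 3 starts in the RefSeq promoter table, of which the one with a match to the NF-kB motif is shown (GRCm38.p6, chr7:83655496-83655745, minus strand). Both strands were searched for each motif, and positions count back from the base before the start, at -1. The match GGGAATTTCC lies at -49 to -40, and 1.41% of all 32817 promoters hold a match to this motif. Capitals mark it and a CAAT box (CCAAT, written ATTGG on the other strand, held by 33.8% of promoters).

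Il16 promoter: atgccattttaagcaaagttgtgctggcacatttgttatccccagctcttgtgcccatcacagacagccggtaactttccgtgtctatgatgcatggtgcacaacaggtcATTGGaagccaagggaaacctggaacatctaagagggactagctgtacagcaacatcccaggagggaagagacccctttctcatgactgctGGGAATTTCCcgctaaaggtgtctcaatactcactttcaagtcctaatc

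Slco2b1 encodes OATP2B1, an organic anion transporter that takes up steroid sulfates, thyroid hormone and drugs, and is among the genes enriched in mouse microglia. Its level was -1.91 and -1.87 on the WGP arrays and 1.83 and 1.41 on the medium arrays. The spread lay mostly in medium, where replicate 1 was the brighter. The mean was -1.89 ± 0.030 with WGP and 1.62 ± 0.30 in medium (SD, n = 2 each), a difference of -3.50 ± 0.17 (SE), or 11.4-fold lower with WGP. A second, dimmer probe had processed signals of 1.67 and 1.62 units with WGP and 19.5 and 12.1 units in medium. It was not well above background with WGP, and gave at least 2.02-fold lower against a measured 7.02-fold.

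Other transporters of the Slco family were mostly too dim to test. Of 14 listed, 13 had a named probe, 3 were tested, 1 rose and the other 2 did not pass. Slco3a1, a prostaglandin and thyroid hormone transporter, rose by 0.56 (limma adjusted p = 0.025), a call lost on leaving out any 1 array (adjusted p between 0.051 and 0.12). It was lost as well with normexp (adjusted p = 0.052 with 75th-percentile scaling and 0.062 with quantile normalization). Slco4a1, a thyroid hormone transporter, had levels of -1.96 and 0.66 with WGP and -0.16 and 0.37 in medium, and did not pass (adjusted p = 0.55). Its WGP arrays lay on either side of both medium arrays, and its difference was -2.07 without WGP replicate 2 (adjusted p = 0.022) and 0.55 without WGP replicate 1.

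Slco2b1 was set beside a list of genes of tissue-resident macrophages, which included microglial genes. Of 27 listed, 22 were tested, 6 rose, 10 fell and 6 did not pass, with a median difference of -0.37. Without WGP replicate 1 or WGP replicate 2 the split was 5 rose and 6 fell. Gpr34, a lysophosphatidylserine receptor of microglia, was not well above background with WGP and was at least 12.98-fold lower there (limma adjusted p = 0.0023), and Cd163 was the other of the largest falls. Pf4, a platelet chemokine also made by resident macrophages, rose by 2.28 (adjusted p = 0.0034).

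Slco2b1 also has 3 starts in the promoter table, of which the one with a STAT motif is shown (RefSeq, GRCm38.p6, chr7:99695810-99696059, minus strand). The match TTCCGGGAA, found with the letters TTCNNNGAA, lies at -133 to -125, and 7.01% of all promoters hold one. Capitals mark it and a CAAT box.

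Slco2b1 promoter: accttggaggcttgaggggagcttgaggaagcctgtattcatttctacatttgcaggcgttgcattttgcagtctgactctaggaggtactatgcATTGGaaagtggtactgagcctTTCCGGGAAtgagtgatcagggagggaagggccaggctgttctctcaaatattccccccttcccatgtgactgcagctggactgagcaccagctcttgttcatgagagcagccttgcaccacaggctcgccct

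Fam214a, also called Kiaa1370 in the RefSeq synonyms, is a relative of the Drosophila nuclear protein Atossa, which acts in fly macrophages as they move into tissue. Its level was -3.60 and -3.87 on the WGP arrays and 0.31 and 0.13 on the medium arrays. Replicates lay close in both groups, and the WGP arrays were not well above background. The mean was -3.73 ± 0.18 with WGP and 0.22 ± 0.12 in medium (SD, n = 2 each), a measured difference of -3.95 ± 0.14 (SE), and the gene was at least 11.8-fold lower with WGP.

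Its paralogue differed in the other direction. Fam214b, the second mouse relative of Atossa, had levels of 4.41 and 4.37 with WGP and 3.73 and 3.77 in medium. Both WGP arrays were the higher, and it rose by 0.64 ± 0.093 (limma adjusted p = 0.011). The call was lost without WGP replicate 1 or without WGP replicate 2 (adjusted p = 0.068 and 0.060).

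The first of the 3 starts of Fam214a in the promoter table is shown because it holds matches to motifs of myeloid and general factors (RefSeq, GRCm38.p6, chr9:74952630-74952879, plus strand). A PU.1 motif, GAGGAAGT, lies at -46 to -39 and overlaps an ETS motif (ACTTCCT on the other strand), and an E box, CACGTG, lies at -10 to -5. These are held by 2.44%, 7.69% and 6.02% of all promoters. The promoter is 64.4% G and C with 20 CG pairs, and capitals also mark 2 CAAT boxes.

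Fam214a promoter: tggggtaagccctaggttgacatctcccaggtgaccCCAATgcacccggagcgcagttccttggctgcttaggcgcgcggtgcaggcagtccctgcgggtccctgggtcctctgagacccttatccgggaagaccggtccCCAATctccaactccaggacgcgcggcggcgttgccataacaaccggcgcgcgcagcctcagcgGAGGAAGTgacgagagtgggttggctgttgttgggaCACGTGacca

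Cd79b encodes Ig-beta, which pairs with Ig-alpha, the product of Cd79a, to carry the signal of the B cell receptor. Its level was -4.84 and -3.65 on the WGP arrays and -0.85 and -1.16 on the medium arrays. The WGP arrays lay far apart and were not well above background, and both were still below the medium arrays. The mean was -4.24 ± 0.84 with WGP and -1.004 ± 0.21 in medium (SD, n = 2 each), a measured difference of -3.24 ± 0.43 (SE), and the gene was at least 5.04-fold lower with WGP. Without WGP replicate 1 the measured difference was -2.65, and without WGP replicate 2 it was -3.83.

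Several genes that act with the B cell receptor also fell. Of 25 listed, 23 were tested, 2 rose, 10 fell and 11 did not pass, with a median difference of -0.51, where 17.4% of all genes tested fell. The split was 1 rose and 6 fell without WGP replicate 1, and 1 and 8 without WGP replicate 2. Most of them also serve other receptors of macrophages. Cd79a itself had levels of -2.95 and -2.95 with WGP and -1.64 and -2.19 in medium, and was not well above background on WGP replicate 2. It fell by 1.03 on the log2 scale (limma adjusted p = 0.025), a call lost without WGP replicate 1 (adjusted p = 0.079), without WGP replicate 2 (adjusted p = 0.078) and with both normexp settings, where its difference was -0.03 and -0.14.

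Bank1, a scaffold of the B cell receptor, was not well above background with WGP and was at least 1.95-fold lower there (limma adjusted p = 0.0021, but 0.20 under normexp scaled to the 75th percentile). Lyn, a Src-family kinase that starts and restrains B cell receptor signals, fell by 1.46 ± 0.12 (adjusted p = 0.0033).

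Among the kinases and exchange factors of this pathway, Syk, which also carries the signal of the beta-glucan receptor Dectin-1, rose by 0.72 (limma adjusted p = 0.013, but 0.060 without WGP replicate 1 and 0.067 without WGP replicate 2). Vav1, an exchange factor for Rac, rose by 1.19 ± 0.097 (adjusted p = 0.0034). Btk differed by -0.24 and did not pass (adjusted p = 0.12), though it did under normexp scaled to the 75th percentile (-0.35, adjusted p = 0.015).

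B cells themselves were looked for with 12 markers, of which 11 had a named probe. Ms4a1, Pax5, Ebf1, Blk, Pou2af1 and Vpreb3 were among those well above background on no array. Cd22, Cr2 and Fcer2a were well above it on all 4 arrays, and Cd79a on all but WGP replicate 2. The summed level of all 11, on a linear scale in units of the array's 75th percentile, was 6.29 and 6.63 with WGP and 8.42 and 7.79 in medium. These defining B cell genes were thus not seen in either group, while the summed level was lower on both WGP arrays. Most of that sum was Cd22, at 5.17 and 5.56 with WGP and 6.86 and 6.25 in medium, which did not pass (limma adjusted p = 0.10). The other 10 summed to 1.13 and 1.07 with WGP and 1.56 and 1.54 in medium. Of the 4 that could be tested, 2 fell (Cd79a and Fcer2a) and 2 did not pass, and 1 fell with the slide as a block. The call of Fcer2a, the low-affinity IgE receptor (-0.68, limma adjusted p = 0.039), was lost with that block (adjusted p = 0.060), median scaling (0.067), quantile normalization (0.051) and both normexp settings. It was also lost without WGP replicate 2 (0.12) and without medium replicate 1 (0.080) or medium replicate 2 (0.14). Their part in the difference of Cd79b was not tested.

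Epor encodes the erythropoietin receptor, which signals through the kinase Jak2 and the factors Stat5a and Stat5b in red cell precursors and, in mouse macrophages, has been tied to the uptake of dying cells. Its level was -2.82 and -4.09 on the WGP arrays and -0.22 and -0.66 on the medium arrays. As with Cd79b, the WGP arrays were not well above background and lay far apart, and both were below the medium arrays. The mean was -3.46 ± 0.90 with WGP and -0.44 ± 0.31 in medium (SD, n = 2 each), a measured difference of -3.02 ± 0.47 (SE), and the gene was at least 6.87-fold lower with WGP. The measured difference was -2.38 without WGP replicate 2 and -3.65 without WGP replicate 1.

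Several signalling genes behind the receptor rose. Of 27 listed, 26 had a named probe, 20 were tested, 10 rose, 4 fell and 6 did not pass, with a median difference of 0.42, where 23.2% of all genes tested rose. The split was 6 rose and 3 fell without WGP replicate 1, and 6 and 2 without WGP replicate 2. Jak2 had levels of 3.67 and 3.66 with WGP and 2.63 and 2.53 in medium. It rose by 1.09 ± 0.097 (limma adjusted p = 0.0040). Stat5a differed by 0.21 (adjusted p = 0.55) and Stat5b by -0.20 (adjusted p = 0.20), and neither passed; the value of Stat5a was -0.13 without WGP replicate 2 and -0.10 with normexp and quantile normalization.

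Socs3, an inhibitor of cytokine receptors, rose by 2.83 ± 0.28 (limma adjusted p = 0.0049). Csf2rb, the beta chain shared by receptors for GM-CSF, IL-3 and IL-5 that can also pair with the erythropoietin receptor, rose by 2.65 ± 0.10 (adjusted p = 0.0013). Ptpn6, the phosphatase SHP-1 that turns the receptor off, fell by 1.10 ± 0.11 (adjusted p = 0.0051), and Lyn was the other of the largest falls.

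Cish, a Stat5 target, was well above background on no array. Epo, the ligand, was well above background on medium replicate 1 alone, with levels of -5.14 and -5.00 on the WGP arrays and -1.04 and -4.96 on the medium arrays. Epo was named after its values were seen.

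Red cell precursors were looked for with 12 markers, of which 10 had a named probe. Gata1, Klf1 and Alas2 were among those well above background on no array. The summed level of the 10 was 6.23 and 7.07 with WGP and 5.74 and 7.31 in medium, so the groups overlapped. Of 4 tested, 1 fell (Hba-a1, an alpha-globin, by 0.70, limma adjusted p = 0.011) and 3 did not pass. It no longer passed without WGP replicate 1 (adjusted p = 0.062), without WGP replicate 2 (0.054) and in both normexp settings (0.92 and 0.22). Their part in the difference of Epor was not tested.

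The promoter of Epor is shown because it holds a GATA motif, the site read by the red cell factor Gata1 and its relatives (RefSeq, GRCm38.p6, chr9:21963577-21963826, minus strand). The match reads TTATCT on this strand, the reverse complement of AGATAA, lies at -54 to -49, and is of a kind held by 9.99% of all promoters. Capitals also mark a GC box (GGGCGG on the other strand) at -26 to -21, which 32.7% of promoters hold.

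Epor promoter: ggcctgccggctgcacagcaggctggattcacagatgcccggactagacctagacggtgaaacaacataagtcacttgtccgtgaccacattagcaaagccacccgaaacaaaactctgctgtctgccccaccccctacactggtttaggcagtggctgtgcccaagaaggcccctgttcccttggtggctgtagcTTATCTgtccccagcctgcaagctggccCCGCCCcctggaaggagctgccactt

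In all, 5 of the 7 genes were matched in the promoter table, with 11 starts, and Zbtb16 and Cd79b were not. No motif occurred in all 5. The CAAT box occurred in 3 of them, before 4 of the 11 starts, and 33.8% of all promoters hold it. The STAT, NF-kB, PU.1, ETS, GATA, AP-1 (TGANTCA), glucocorticoid receptor (ACANNNTGT), GC box and E box motifs occurred in 1 gene each. The AP-1 and glucocorticoid receptor matches lay before another start of Il16, at -18 to -12 and at -49 to -41. Such matches are held by 6.75% and 5.84% of all promoters. The STAT6, CRE (TGACGTCA), TATA-box (the run TATAAA) and octamer (ATTTGCAT) motifs had no match in these windows. A match is a run of letters and was not tested as a binding site.

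**Figure D3:**
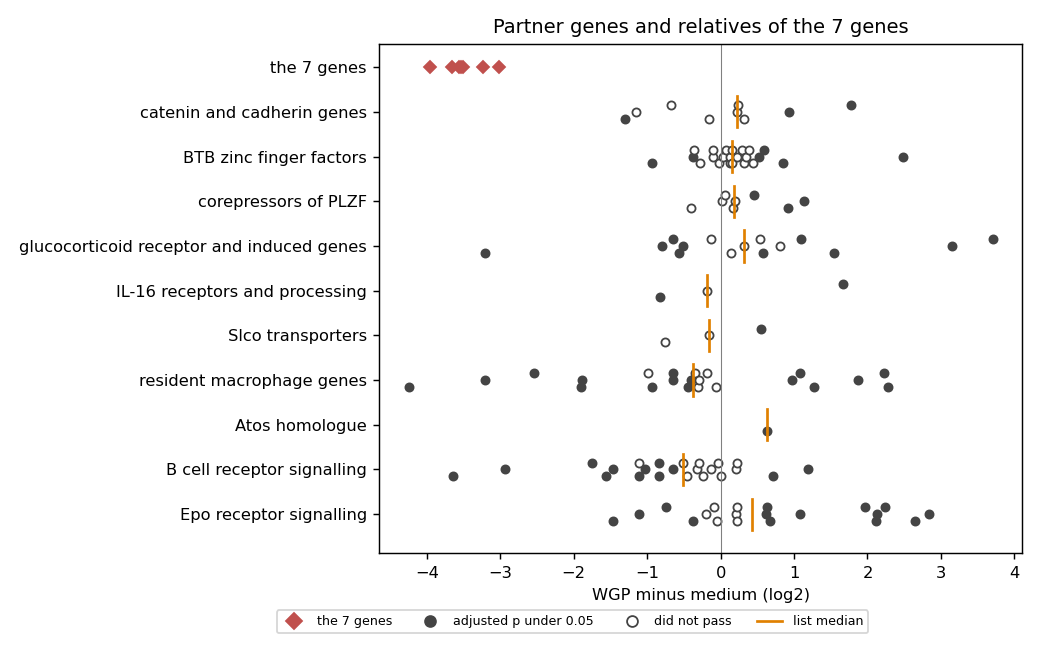
Difference between WGP and medium (horizontal axis, log2) for the 7 genes (red diamonds) and for the genes tested on each list of partners and relatives (vertical axis). Filled circles passed the limma test, open circles did not, and the orange bar is the list's median, which runs between -0.51 (B cell receptor signalling) and 0.64 (the single Atos homologue) while the 7 genes lie between -3.95 and -3.02.

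Over the 10 lists together, 122 of 173 genes were tested, 35 rose and 30 fell, and their median difference was 0.01. Partners and relatives as a whole thus had a median near that of all genes, but a median does not show moves in opposite directions. Larger shares of them rose and fell than the 23.2% and 17.4% of all genes tested. The lists were chosen with earlier results of these data known, so nothing is read from that excess. Cd163 and Gpr34 were among the list genes whose measured difference was at or beyond the smallest of the 7.

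Among genes well above background on all 4 arrays, whose difference has an order, 4 of the 7 stood close together. They were picked for a large fall on these same arrays, so their place near the top follows from that choice. Ctnnd2 was the 4th deepest fall of 9874 such genes, Il16 the 6th, Zbtb16 the 7th and Slco2b1 the 8th. Gprc5c, an orphan G-protein-coupled receptor with a 12.8-fold fall, came just before Ctnnd2. Rasgrp3, an activator of Ras, followed Slco2b1 with a 10.5-fold fall. The standard errors of Ctnnd2, Il16, Zbtb16 and Slco2b1, between 0.13 and 0.17, exceed the steps from each to the next of them, so their order was not resolved. Gprc5c and Rasgrp3 are named here as the genes next in this order.

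**Figure D4:**
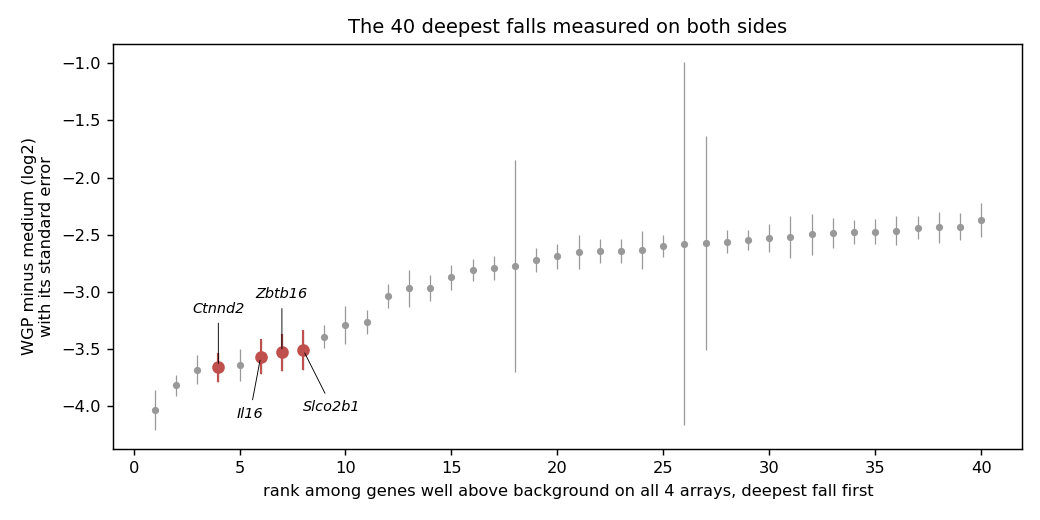
The 40 deepest falls among genes well above background on all 4 arrays, in order (horizontal axis: rank; vertical axis: WGP minus medium on the log2 scale, with its standard error). Ctnnd2, Il16, Zbtb16 and Slco2b1 (red) stand at ranks 4, 6, 7 and 8, between -3.66 and -3.50.

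The other 3 have no order, since their WGP values are at the edge of detection. By measured difference Fam214a stood between Clec10a, a lectin receptor of alternatively activated macrophages (16.4-fold lower and well above background on all 4 arrays), and Afap1l1 (14.8-fold). Cd79b stood between Mast3, whose standard error was 1.70, and Cd163. Epor stood between Rnase6 (8.17-fold) and Mbl2 (8.04-fold). Mast3, Rnase6, Mbl2 and Afap1l1 were likewise well above background on neither WGP array.

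The genes were also compared by their pattern over the 4 arrays, as the Euclidean distance between levels after subtracting each gene's mean. The closest pair among the 7 was Zbtb16 and Il16, at a distance of 0.18, and the farthest was Cd79b and Epor, at 1.75. Cd79b was lowest on WGP replicate 1 and Epor on WGP replicate 2, which is where their distance lies. Among all genes tested, Gprc5c was nearest to Ctnnd2 (0.034) and Ctnnd2 to Slco2b1 (0.20). Afap1l1 was nearest to Fam214a (0.14) and Arhgap18 to Cd79b (0.38). These distances rest on 4 arrays and carry no test.

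Each replicate number was 1 slide, with a medium and a WGP array on it, per the file headers. On both slides medium was at position 1 and WGP at position 3, so treatment and position cannot be told apart. Within slides the differences lay between -4.00 and -2.49, so every gene was lower with WGP on both slides. The genes were picked on these same arrays, so nothing is read from that agreement. The fall was larger on slide 1 in 5 genes, and larger on slide 2 in Fam214a (-4.00 against -3.91) and Epor (-3.43 against -2.60). The widest gap was in Cd79b, at -3.99 on slide 1 and -2.49 on slide 2. Medium replicate 1 was above medium replicate 2 in 6 of the 7, Zbtb16 being the exception.

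The falls were much smaller in the normexp settings. These start from the median spot signal in place of the processed signal, model the background and add an offset of 50 units to every signal, and the part of each step was not tested. The differences lay between -1.61 and -0.32 with 75th-percentile scaling and between -1.67 and -0.44 with quantile normalization. Under the first of these Zbtb16 had -1.61, Slco2b1 -1.60 and Il16 -1.59, while Ctnnd2 had -1.36, Fam214a -1.03, Epor -0.48 and Cd79b -0.32. All 7 stayed lower with WGP. Under the other settings tried the 7 genes lay between -4.08 and -2.38.

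**Figure D5:**
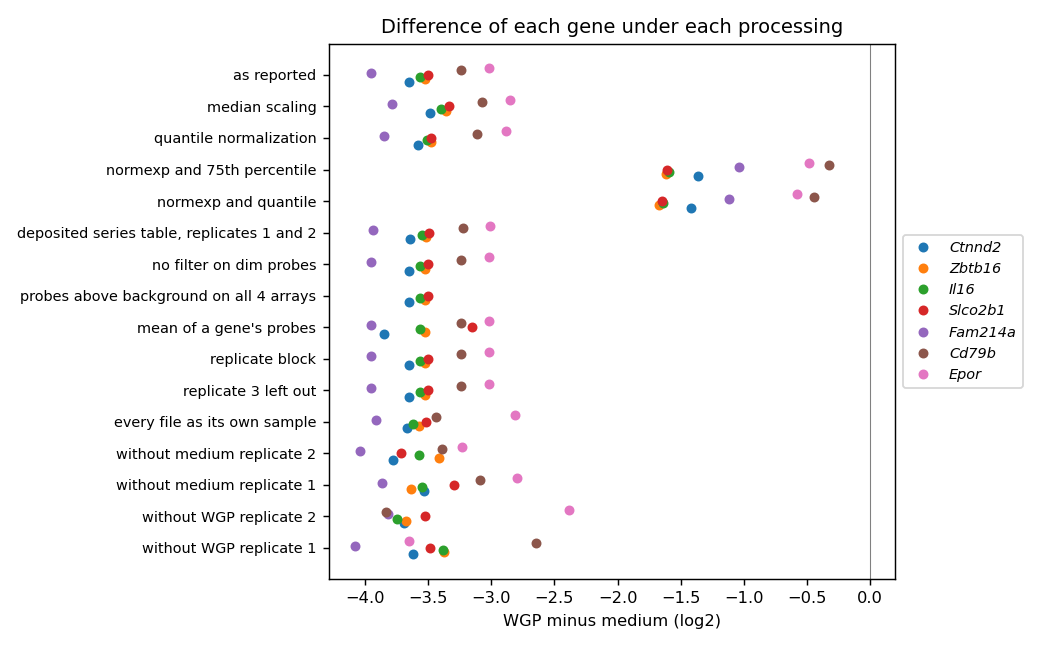
Difference between WGP and medium for each of the 7 genes (horizontal axis, log2) under each way of processing (vertical axis). All points lie left of 0, and the normexp settings, whose values lie between -1.67 and -0.32, stand apart from the others, which lie between -4.08 and -2.38.

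On the chromosomes, Zbtb16, Fam214a and Epor lie on chromosome 9, Il16 and Slco2b1 on chromosome 7, Cd79b on chromosome 11 and Ctnnd2 on chromosome 15. These chromosomes hold 5.38%, 8.58%, 8.82% and 3.96% of the genes tested, in that order. The nearest tested gene on each side of each of the 7 was looked up. Of these 14 neighbours 2 fell, 2 rose and 10 did not pass, with a median difference of 0.15. Of all genes tested 17.4% fell and 23.2% rose. The neighbours that fell were Gm5617 beside Zbtb16 (-0.62, limma adjusted p = 0.024) and Arrb1, beta-arrestin 1, beside Slco2b1 (-0.81, adjusted p = 0.0099). These were named after their values were seen.

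As a check of the labels, 8 of 9 macrophage markers had a named probe, and all 8 were well above background in both groups. Of these 2 rose, 3 fell and 3 did not pass, with a median difference of -0.21, and 1 rose and 2 fell without WGP replicate 1 or WGP replicate 2. Their summed level was 1923 and 1662 with WGP and 1486 and 1437 in medium. Most of that sum was Csf1r, the receptor of the growth factor M-CSF, which did not pass (limma adjusted p = 0.059). The other 7 summed to 336 and 348 with WGP and 403 and 418 in medium, so the sums with and without Csf1r lay in opposite directions. Among 18 genes of alternative activation 11 were tested, 3 rose, 3 fell and 5 did not pass, or 5 and 3 without medium replicate 1. Of the 18, 10 were well above background on at least 1 WGP array and 10 on at least 1 medium array. Mrc1, Mgl2 and Clec10a were well above it on all 4 arrays. Arg1 and Retnla, the usual defining genes of mouse M2 cells, were so on no array.

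Markers of other cell types were present in part. Of 7 dendritic cell markers 4 were tested and 3 rose, where 23.2% of all genes tested rose. These were Itgax (CD11c, also carried by macrophages, by 1.35), Siglech (by 1.08) and Ccr7 (by 0.84), and the list's median difference was 0.96. Siglech is also on the list of resident macrophage genes. Flt3, Xcr1 and Clec9a were well above background on no array. Without WGP replicate 1 or WGP replicate 2 the number that rose was 1. Their summed level was 204 and 217 with WGP and 122 and 81.4 in medium, mostly from Siglech, and the others summed to 3.34 and 3.25 with WGP and 1.81 and 1.52 in medium.

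For T and NK cells 6 of 12 markers were tested, 2 rose, 1 fell and 3 did not pass. Cd3e had levels of 3.54 and 4.12 with WGP and 3.79 and 3.89 in medium, while Cd3d and Cd3g were well above background on no array. The summed level was 59.1 and 59.1 with WGP and 46.3 and 49.3 in medium. Without Il7r, the receptor chain for interleukin-7, the sum was 25.4 and 31.1 with WGP and 39.7 and 41.3 in medium, so it was then lower on both WGP arrays.

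For neurons, where Ctnnd2 is best known, 1 of 6 markers was tested. Snap25, a protein of vesicle fusion, was well above background on all 4 arrays, with levels of 6.82 and 6.87 with WGP and 7.27 and 7.59 in medium. It fell by 0.58 on the log2 scale (limma adjusted p = 0.039), a call lost with median scaling (adjusted p = 0.14), without WGP replicate 1 (0.14), without WGP replicate 2 (0.12) and without medium replicate 2 (0.081). Nefl, a neurofilament gene, was well above background on medium replicate 2 alone, and Map2 and Tubb3 on no array. The part of these markers in the falls of the 7 genes was not tested.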

How the data were processed

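Per the submitters' processing notes, spots were read with Agilent Feature Extraction 10.7.3. The deposited intensity of each spot, the processed signal, is after background subtraction and spatial detrending, per the file headers. The processed signal of WGP replicate 3 was 1.30 times that of WGP replicate 1 and was averaged with it, while medium replicate 3, a mean of replicates 1 and 2, was left out. The deposited series table holds log2 values that the authors centred by probe, and was an alternative. After centring, it correlated with the levels used here at 0.9999 over 39394 probes, and the baseline of its centring is unknown. Its columns had medians of 0.100, 0.130 and 0.100 for WGP replicates 1 to 3, and of -0.014, 0.164 and 0.103 for medium replicates 1 to 3.

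The 1377 control spots and the 118 to 183 outlier spots of an array were dropped, and saturated spots numbered 0. Probes were named by RefSeq accession (26761 of 39429 probes). Probes well above background on both WGP arrays or both medium arrays were kept, and the brightest kept probe stood for its gene. The log2 levels, scaled to the 75th percentile of each array, were fitted with limma 3.58.1 in R 4.3.3 on 2 arrays per group, with Benjamini-Hochberg adjustment over 10948 genes and a threshold of 0.05, after testing on simulated data. The number of arrays limits the precision. The labels' replicate numbers are also the slides, per the file headers, and deviations correlated at 0.14 within slides over 2 pairs. The files used here give no mean spot signal, so normexp ran on the median signal. The members and gene lists were chosen with earlier results of these data known. From each list the text names up to 2 genes that rose and 2 that fell with the largest differences, besides fixed partners, the neighbours of each member in the order of falls, and the genes most alike in pattern. Some genes that this rule names are not reported here.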

Additional observations from a re-analysis of the deposited data

How the results depend on the processing

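All 7 genes were lower with WGP under each of the 15 alternative settings in which they were tested, except that only 4 of the 7 could be tested with probes above background on all 4 arrays. Of all genes, 4442 changed, against 1532 with no filter on dim probes, where 20274 genes were tested, and 7453 with every file as its own sample, which counts arrays more than once. Of the list genes 30 fell, against 11 with no filter and 49 with every file as its own sample. Leaving out 1 array at a time gave 2253 to 3280 changed genes and 16 to 25 list genes that fell. The count of changed genes was 2259 without WGP replicate 1, 2253 without WGP replicate 2 and 2852 without medium replicate 2, and 16 list genes fell without WGP replicate 1. With the replicate block (the slide) 4092 genes changed and 27 list genes fell. Of the 65 list genes that changed, 57 kept their call with the block, 28 with no filter, 35 without WGP replicate 1 and 37 without WGP replicate 2. Median scaling shifted the median difference of all genes to 0.19 and left 1199 genes lower, so 72.7% of changed genes were higher with WGP, against 57.2% as reported. Signal over background limits Fam214a, Cd79b and Epor, whose falls are lower bounds for the processed signal alone. Except where a setting tests fewer genes or repeats arrays, the cause was not tested.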
